A study of Mus musculus with 3 samples.

Results

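Actb and Tuba1b, which encode beta-actin and an alpha-tubulin, are the 2 cytoskeleton genes among the 15 genes that the array files name by a RefSeq accession. They were chosen by name, with earlier results of these data known. Each was read by 1 probe, CUST_9_PI419532418 for Actb and CUST_1_PI419532418 for Tuba1b, printed in 20 spots spread over each array. The RNA came from primary dorsal root ganglion neurons of C57BL/6 mice aged 5 to 9 days, the sensory neurons whose cell bodies lie beside the spinal cord. The cells were grown for 5 days and then kept for 24 h in one of 3 treatments. These were vehicle (1% ethanol in normal saline), melatonin at 1 mM, and 8-M-PDOT at 100 µM, which activates the melatonin receptor MTR1B. The labels give ethanol for the vehicle alone and name no solvent for the treated cultures, and they do not say how many mice or dishes went into an RNA sample. Each condition had 1 single-colour array, so there is no replicate of a condition and no test between conditions, and every SD below is the spread over spots within arrays, which is technical.

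Beta-actin assembles into the filaments that shape the cell cortex and drive growth cones and cell movement. Its gene is a classic target of serum response factor, whose coactivators respond to the pool of unassembled actin, and in neurons part of its mRNA is carried into axons and translated there. Alpha-tubulin pairs with beta-tubulin to build microtubules, which stiffen the axon and serve as the tracks of axonal transport, and cells adjust tubulin mRNA stability to the amount of free tubulin. Both genes are abundantly expressed in most cell types and are often used as reference genes.

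All 20 spots of both probes were well above background on each of the 3 arrays. One Actb spot was flagged as an outlier on the vehicle array and one Tuba1b spot on the 8-M-PDOT array, and these positions were left out on all arrays, which left 19 spots a gene. The local background of the spots lay between 19 and 26 intensity units, and the brightest spot of either gene, a Tuba1b spot on the vehicle array, reached 30.5% of the saturation level of the scan. Between 44580 and 45094 of 60846 probes were well above background on an array. The 75th percentile of the signal was 477 units for vehicle, 454 for melatonin and 328 for 8-M-PDOT, and log2 values were set relative to this percentile before arrays were compared. Of 33 marker genes listed for neurons, glia, fibroblasts, macrophages and vessel cells, and of 57 further cytoskeleton genes, 0 are named in the files, so the labelled cell type was not checked and the rest of the actin and tubulin families was not analysed here.

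Actb gave its lowest signal on the vehicle array and its highest on the 8-M-PDOT array. The 19 vehicle spots ran from 8845 to 10151 intensity units with a median of 9524. On the melatonin array they ran from 12499 to 14678 with a median of 13268. On the 8-M-PDOT array they ran from 24280 to 29285 with a median of 25982. No spot of one array overlapped those of another, and the coefficient of variation over spots was 4.02%, 4.86% and 4.89% for the vehicle, melatonin and 8-M-PDOT arrays. Before any scaling, Actb was thus 1.42-fold higher with melatonin than with vehicle and 2.74-fold higher with 8-M-PDOT. RNA was taken from whole cultures, so a different share of a cell type and a different amount of RNA per cell cannot be told apart, here and for the values that follow.

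Tuba1b ran the other way in unscaled signal. Its vehicle spots lay between 202789 and 237523 intensity units with a median of 220166. On the melatonin array they lay between 167355 and 189965 with a median of 172993, and on the 8-M-PDOT array between 141785 and 162109 with a median of 148236. The spots of the 3 arrays did not overlap here either. Unscaled Tuba1b signal was 1.24-fold lower with melatonin than with vehicle and 1.48-fold lower with 8-M-PDOT, while the 75th percentile of all probes was also lowest on the 8-M-PDOT array.

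**Figure D1:**
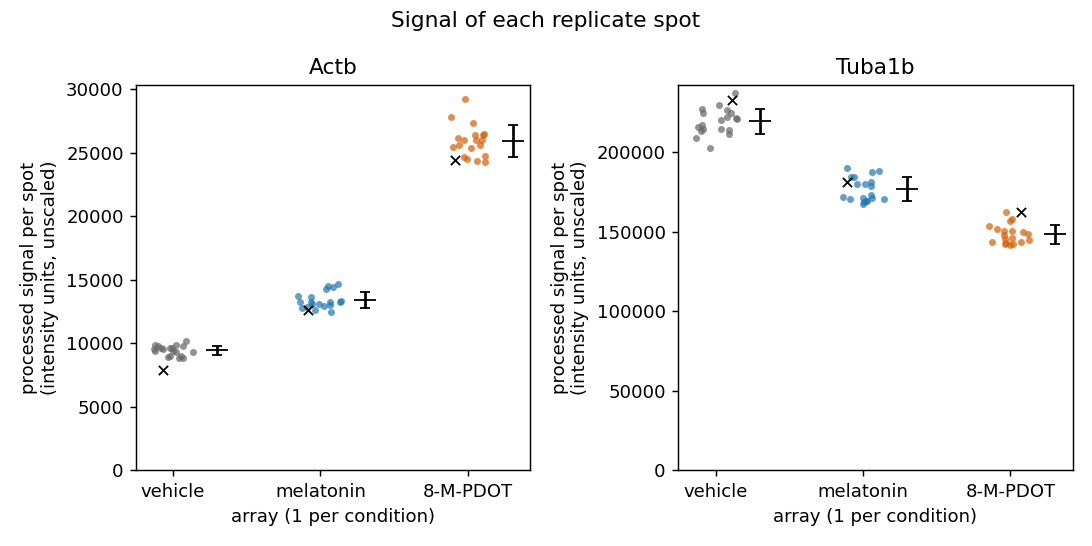
Processed signal of each replicate spot of Actb (left) and Tuba1b (right) on the vehicle, melatonin and 8-M-PDOT arrays, in intensity units and before scaling between arrays. Points are the 19 spots used, crosses the left-out position on each array, and bars the mean ± SD over the 19 spots; Actb signal goes up and Tuba1b signal goes down from vehicle to melatonin to 8-M-PDOT, with no overlap of the points between arrays.

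The first question was how the genes stood after 24 h of melatonin relative to vehicle. After scaling, Actb was 1.49-fold higher on the melatonin array, a log2 ratio of 0.58 ± 0.07 (SD over 19 spots). Its lowest spot had a log2 ratio of 0.46 and its highest 0.76, so 19 of 19 spots were higher and 0 reached 2-fold, the threshold named in the series design. Tuba1b had a log2 ratio of -0.24 ± 0.06 (19 spots), with spots from -0.41 to -0.18, so all 19 were lower on the melatonin array. The genes therefore stood on opposite sides of vehicle. Each distance exceeded the spread over spots, which is technical and says nothing of the variation between cultures. Neither is among the 6.09% of 46504 measured probes past 2-fold in the higher direction or the 5.14% past it in the lower. Among all measured probes 13.1% had a ratio at least as high as Actb and 33.9% one at least as low as Tuba1b. Over the 2301 probes whose mean signal over the arrays was at least that of Actb, these shares were 3.52% and 42.4%. Their median log2 ratio was -0.17, close to that of Tuba1b.

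The same question was put for the receptor agonist 8-M-PDOT. Actb was 3.99-fold higher, a log2 ratio of 2.00 ± 0.06 (SD over 19 spots), with a lowest spot of 1.90 and a highest of 2.15. All 19 spots were past 2-fold. The share of measured probes at least 2-fold higher in this comparison was 17.1% of 47822, against 15.8% at least 2-fold lower, so passing 2-fold was common. These shares depended on the processing: 8171 probes were higher and 7545 lower here, against 4901 and 15415 without scaling and 5109 and 4891 with normexp and quantile normalization. A ratio at least as high as that of Actb was seen in 7.00% of measured probes, and in 1.17% of the 2301 probes whose mean signal over the arrays was at least that of Actb. Tuba1b had a log2 ratio of -0.02 ± 0.04 (19 spots), with spots from -0.09 to 0.05. Of its spots 6 were higher and the others lower than on the vehicle array, the scaled spots of the arrays overlapped, and the ratio was close to the median of all measured probes, -0.04. Among the 2301 brighter probes 42.3% had a ratio at least as low as that of Tuba1b. The sign and size of the Tuba1b ratio depended on the scaling, and it was below 0 in 14 of 15 ways of processing. It was -0.56 without scaling and -0.41 with quantile normalization. When the percentile was taken over the probes detected above background on every array, it was 0.10. Both comparisons share the vehicle array, so the values of a gene in the pair of comparisons are not independent.

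**Figure D2:**
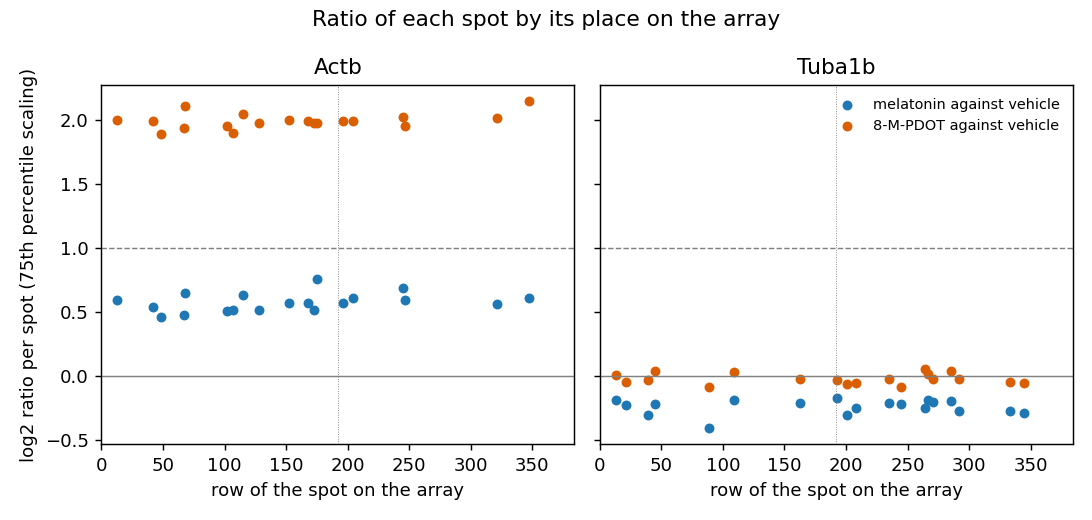
Log2 ratio of each of the 19 spots of Actb (left) and Tuba1b (right) against the row of the spot on the array, for melatonin and for 8-M-PDOT against vehicle, after 75th percentile scaling. The solid line marks no difference, the dashed line 2-fold higher and the dotted line the middle row, 192; Actb spots keep between 0.46 and 0.76 with melatonin and between 1.90 and 2.15 with 8-M-PDOT from the top of the array to the bottom.

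The replicate spots also show how far a ratio depended on the place on the array. For 8-M-PDOT against vehicle, the Actb log2 ratio was 1.98 ± 0.06 over the 13 spots in the upper part of the array and 2.02 ± 0.07 over the 6 in the lower part. For melatonin against vehicle the values were 0.56 ± 0.08 and 0.61 ± 0.04. The Tuba1b log2 ratio with melatonin was -0.25 ± 0.08 over 7 upper spots and -0.24 ± 0.04 over 12 lower ones. The ratios of both genes thus differed between the parts of the array by less than the spread over spots. The headers show a multiplicative detrending fit, a correction for brightness across the array, for the melatonin and 8-M-PDOT arrays (root mean square 0.046 and 0.044) and none for the vehicle array. With the signal before that step, Actb had log2 ratios of 0.59 with melatonin and 2.01 with 8-M-PDOT, and Tuba1b of -0.25 and -0.03.

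The treated arrays were also set against each other. The doses differ, 1 mM melatonin and 100 µM 8-M-PDOT, so these values are not a comparison of the compounds at a matched dose. Melatonin is built on an indole ring and 8-M-PDOT on a tetralin ring. Actb was 2.68-fold higher with 8-M-PDOT than with melatonin (log2 ratio 1.42 ± 0.07, 19 spots), where 15.3% of 47798 measured probes passed 2-fold in this direction. That count, 7327 higher against 6498 lower, was 4364 against 12164 without scaling. A ratio at least as high as that of Actb was seen in 9.55% of measured probes and in 3.39% of the 2301 brighter probes. All 19 spots were past 2-fold after scaling, while the unscaled signals differed by 1.93-fold, which is the one way of processing that put Actb under 2-fold here. Tuba1b had a log2 ratio of 0.22 ± 0.05, with 19 of 19 spots higher, but its sign turned with quantile normalization (-0.24), in the authors' deposited table (-0.24), without scaling (-0.25), and with normexp background modelling followed by quantile normalization (-0.25). The order of the arrays for Actb, vehicle below melatonin below 8-M-PDOT, was the same in all 15 ways of processing. For Tuba1b the melatonin array was below vehicle in all 15, and the place of the 8-M-PDOT array depended on the scaling.

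**Figure D3:**
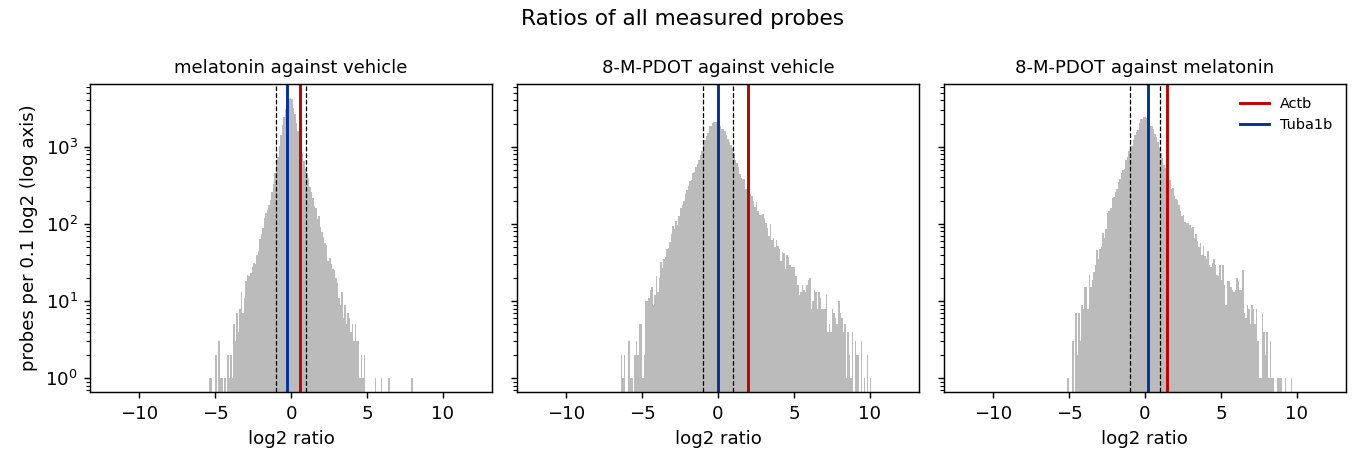
Histograms of the log2 ratio over all measured probes (46504, 47822 and 47798) in the 3 comparisons, in bins of 0.1 with a logarithmic count axis. Vertical lines mark Actb (red) and Tuba1b (blue), and dashed lines 2-fold; Actb lies at 0.58, 2.00 and 1.42 and Tuba1b at -0.24, -0.02 and 0.22.

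Setting the change of one gene against that of the other removes any scaling that shifts a whole array by a constant. The log2 ratio of Actb exceeded that of Tuba1b by 0.82 ± 0.09 for melatonin against vehicle (the SD combines the spread over spots of both genes). For 8-M-PDOT against vehicle the difference was 2.02 ± 0.08, a 4.05-fold change of Actb relative to Tuba1b. For 8-M-PDOT against melatonin it was 1.20 ± 0.08. Quantile normalization, which adjusts bright and dim probes differently, gave 1.00, 2.45 and 1.45 for these differences. These differences show unequal ratios of the probe signals between single arrays, with 1 array per condition. They do not show that either gene stayed constant.

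In the authors' deposited table, Actb had log2 values of 12.82 on the vehicle, 13.66 on the melatonin and 14.88 on the 8-M-PDOT array. Tuba1b had 17.64, 17.48 and 17.24 in the authors' deposited table. That table thus puts Actb 0.84 and 2.06 above vehicle and Tuba1b 0.16 and 0.40 below it, so there Tuba1b is lowest with 8-M-PDOT rather than with melatonin.

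The ratios were also placed among those of all 15 named genes. With 8-M-PDOT, the log2 ratio of Actb to vehicle had rank 2 of the 15, after B2m, the light chain of class I histocompatibility molecules (2.86). It was at least 2-fold above the ratios of 12 of the other 14, the exceptions being B2m and Rpl13a, a ribosomal protein gene (1.16). Its rank was the same in all 15 ways of processing. Median scaling, no scaling and the percentile over detected probes differ from the main setting by a constant per array. They cannot change the rank of any gene. With melatonin Actb had rank 4 of the 15 from the highest, and its ratio was within 2-fold of those of 10 of the other 14. Tuba1b had rank 10 with melatonin and rank 9 with 8-M-PDOT, within 2-fold of 11 and 9 of the others. Over the 15 ways of processing its rank lay between 10 and 12 with melatonin and between 9 and 10 with 8-M-PDOT.

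The likeness of patterns was measured by centring each gene's 3 log2 values on their mean and taking the root mean square difference over the 3 arrays. The gene nearest to Actb was Rpl13a, at 0.34, followed by Gk, glycerol kinase, at 0.68. Rpl13a and Actb were both highest on the 8-M-PDOT array, but Rpl13a had a log2 ratio of 0.09 with melatonin where Actb had 0.58. The genes nearest to Tuba1b were Gapdh, an enzyme of glycolysis, at 0.021, and Ppia, cyclophilin A, at 0.046. Gapdh had log2 ratios of -0.22 with melatonin and -0.05 with 8-M-PDOT, against -0.24 and -0.02 for Tuba1b. Actb and Tuba1b were 0.83 apart, so 6 of the named genes were nearer to Actb than Tuba1b was. These distances rest on 3 arrays and describe them.

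**Figure D4:**
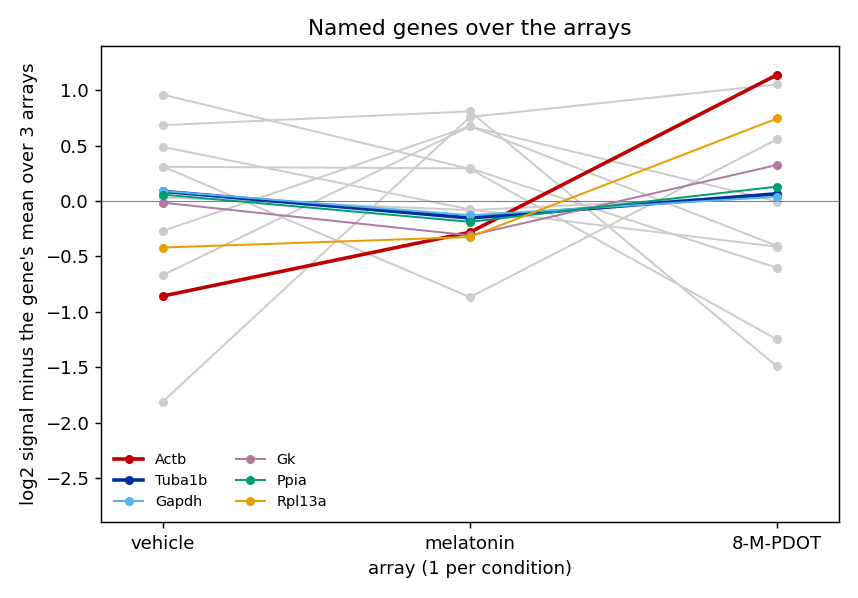
Log2 signal of the 15 named genes on the vehicle, melatonin and 8-M-PDOT arrays, each centred on its mean over the 3 arrays. Actb, Tuba1b and the 2 genes nearest to each are coloured and the other genes grey; Actb runs from -0.86 to 1.14 while Tuba1b stays between -0.15 and 0.09.

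**Figure D5:**
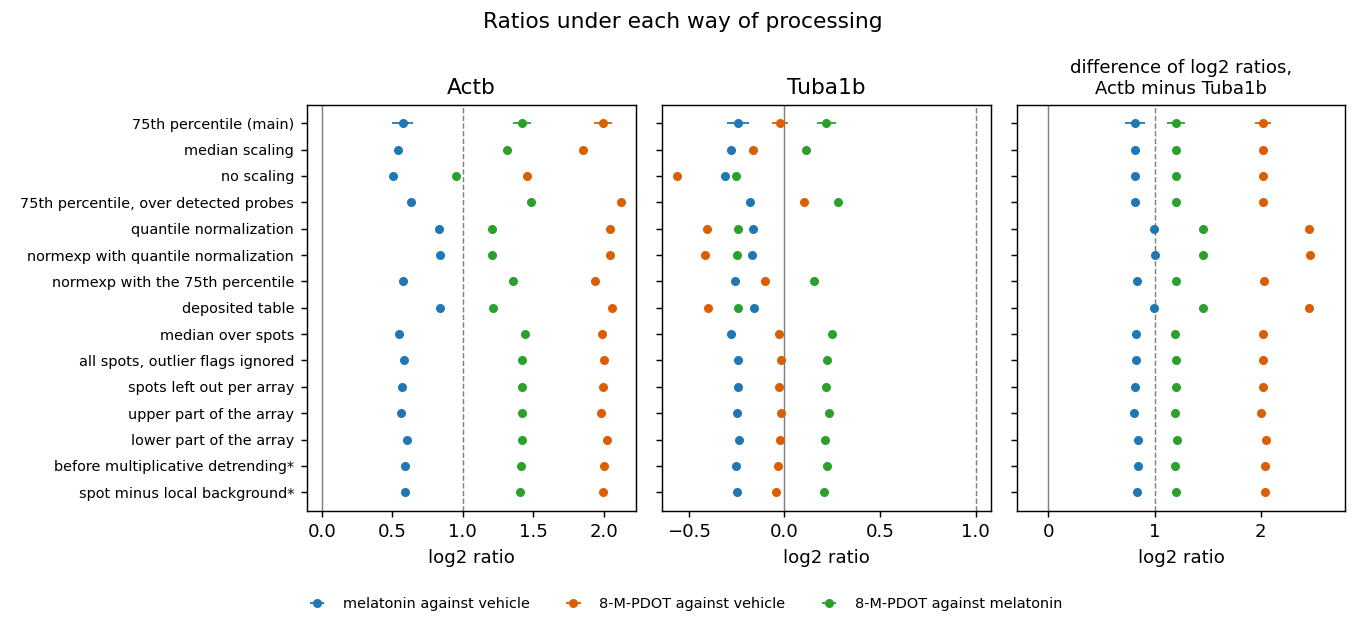
Log2 ratios of Actb (left) and Tuba1b (middle), and the difference of their log2 ratios (right), under each of 15 ways of processing, for the 3 comparisons. Bars on the main setting are the SD over spots, the solid line marks no difference, the dashed line 2-fold, and asterisks mark settings added after seeing the data; Actb against vehicle stays between 0.50 and 0.84 with melatonin and between 1.46 and 2.12 with 8-M-PDOT.

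The probe sequences were not analysed here. Actb has a close relative in Actg1 and many processed pseudogenes, and Tuba1b has close relatives in Tuba1a and Tuba1c. Whether their transcripts bind these probes was not tested, so the signals are uncertain in this respect.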

How the data were processed

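Total RNA of 3 cultures, 1 per condition, was labelled with Cy3 and read on Arraystar mouse arrays in 1 colour, per the labels. Per the file headers, 1 slide in 1 scan held all 3 arrays, so position on the slide cannot be told apart from condition. Spot intensity values in the deposited scanner files had been corrected for background with Agilent Feature Extraction, version 11.0.1.1 per the submitters' processing notes. The headers show a further multiplicative correction across the array for the treated arrays and none for the vehicle array. Other deposited columns are flags for outlying, saturated and well above background spots; 0 spots were saturated. The authors also deposited a table of log2 values, with a normalization not given in the sources used here.

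Controls were dropped, as were 15 negative-control probes and every spot position with a feature outlier flag on at least 1 array; 69 more probes were lost that way. The log2 processed signals were averaged over spots, and the array's 75th percentile over study probes was subtracted. A probe counted as measured when well above background on at least 1 array compared, and dim values were replaced by a floor, the array's lowest signal among probes well above background, if under it. Probe counts used a threshold of 2-fold. No p-value was computed, because precision is limited by the number of arrays. The random variance model and paired t-test named in the series design need replicates and were not run.

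Genes were matched by accession, without version, to a RefSeq table (all 15 matched). Its assembly differs from the mm9 build of the array grid, so no coordinates are given. Named genes were the members, any on the cytoskeleton list, and the 2 with the nearest pattern to each; B2m is named in addition, after its value was seen. The members and lists were chosen with earlier results of these data known. Alternatives for the ratios were 12 planned and 2 added after seeing the data. Probe counts were also taken at a 1.5-fold threshold and without the filter on dim probes, both planned. Normexp modelling (limma 3.58.1 in R 4.3.3, offset 50) used the median spot signal, since the files hold no mean signal column.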

Additional observations from a re-analysis of the deposited data

How the results depend on the processing

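No paired analysis was possible because no condition has a second array, which also kept any array from being left out. Of 14 alternatives, none reversed Actb, which stayed past 2-fold against vehicle with 8-M-PDOT and under it with melatonin in each. Flagged spots kept or dropped per array, medians over spots, parts of the array and both signals added after seeing the data moved no value by more than the SD over spots. Quantile normalization gave Actb 0.83 (melatonin against vehicle) and 1.21 (8-M-PDOT against melatonin), Tuba1b -0.16, -0.41 (8-M-PDOT against vehicle) and -0.24, and a difference of 1.00, 2.45 and 1.45. Normexp with quantile normalization gave 0.84 and 1.21, then -0.17, -0.42 and -0.25, then 1.01, 2.47 and 1.46. The authors' deposited table gave 0.84 and 1.22, then -0.16, -0.40 and -0.24, then 1.00, 2.46 and 1.46. Normexp with the 75th percentile moved Tuba1b to -0.10 (8-M-PDOT against vehicle) and 0.16 (against melatonin). Without scaling, which shifts the ratios of all probes by -0.07, -0.54 and -0.47, Tuba1b was -0.31, -0.56 and -0.25, and Actb with 8-M-PDOT was 1.46 (vehicle) and 0.95 (melatonin). Median scaling, with shifts of -0.14 and -0.11 in the 8-M-PDOT comparisons, gave Actb 1.85 and 1.31 and Tuba1b -0.16 and 0.11. The percentile over probes detected above background on every array, with a shift of 0.12 against vehicle, gave Actb 2.12 with 8-M-PDOT and Tuba1b -0.18, 0.10 and 0.28. The cause of these moves was not tested beyond the constant shifts.

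Counts of probes past 2-fold were 2833 higher and 2390 lower with melatonin, 8171 and 7545 with 8-M-PDOT, and 7327 and 6498 for 8-M-PDOT against melatonin. Those moved by over 1.5 times follow. Normexp with quantile normalization gave 1361 and 1115, 5109 and 4891, and 4123 higher. Normexp with the 75th percentile gave 1371 and 1370, 4973 lower, and 4576 and 4001. No scaling gave 4901 and 15415 with 8-M-PDOT, and 4364 and 12164 against melatonin. A threshold of 1.5-fold gave 6000 and 6414, 12807 and 13027, and 12466 and 11301. Without a filter on dim probes melatonin had 4380 and 3719. Both genes lie far above background, so dim signal does not limit their values.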

Other observations

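The study probes printed next to the Actb spots were also read. Over 94 adjacent spots well above background on both arrays, the median log2 ratio of 8-M-PDOT against vehicle was -0.05, and 16.0% were at least 2-fold higher. Over 97 adjacent spots the median for melatonin against vehicle was -0.06. Next to the Tuba1b spots the medians were -0.09 (108 spots) with 8-M-PDOT and -0.09 (110 spots) with melatonin.

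Brighter probes were placed differently from all probes. Over the 2301 probes with a mean signal of at least that of Actb, the median log2 ratio was -0.17 with melatonin and 0.17 with 8-M-PDOT, against -0.06 and -0.04 over all measured probes. Tuba1b, at -0.24 and -0.02, was below both medians of the brighter probes, and Actb, at 0.58 and 2.00, above them.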
